A study of Homo sapiens with 20 samples.

Results

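The CLCN5 intronic cluster is a group of X-linked microRNAs (miRNAs) whose hairpins lie in an intron of CLCN5, the gene of a chloride and proton exchanger of endosomes. Its 10 members described here were chosen by name among the 2588 mature miRNAs of the deposited count tables: miR-532-5p, miR-532-3p, miR-188-5p, miR-500a-3p, miR-362-5p, miR-362-3p, miR-501-5p, miR-501-3p, miR-660-5p and miR-502-3p. Each of the 10 was listed under a single hairpin.

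Small RNA was sequenced in 20 libraries of 2 human cell lines, HCT116 (colon cancer) and HEK293E (derived from embryonic kidney cells). DROSHA knockout (KO) HCT116 cells and DROSHA KO HEK293E cells were each rescued with DROSHA-p140, a shorter form, or with full-length DROSHA, in 3 libraries per form and line. Wild-type (WT) HCT116 cells were cultured for 72 hr with 0.1% or 9.1% fetal bovine serum (FBS), in 3 libraries each. HCT116 KO cells that received GFP and untreated WT HCT116 cells gave 1 library each, so these have no replicate error. How the rescue constructs were delivered, and whether a knockout line is 1 clone, is not given in the sources used here, and neither is whether replicates were separate cultures. The p-values below therefore measure only the spread between these libraries, which may be technical.

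DROSHA is the nuclease that, with its partner DGCR8, frees the hairpins of miRNAs from long nuclear transcripts. DICER then cuts the hairpin into a duplex, and one or both strands, the 5p and the 3p arm, are loaded into an Argonaute protein. An intronic miRNA made from the host gene's pre-mRNA has to be cut out of it. Neighbouring hairpins of a cluster can start from the same transcript although each is cut on its own. The loaded miRNA finds its targets mainly through the seed, bases 2 to 8 from its 5′ end. Several members have published targets or roles: miR-532-5p targets RUNX3, miR-362-5p the deubiquitinase CYLD, and miR-660-5p MDM2, while miR-188 was tied to the balance of bone and fat cell formation in mice and miR-501-3p to a glutamate receptor subunit in mouse neurons.

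The RefSeq table of mature miRNAs (GRCh38.p14) held 9 of the 10 members, and miR-660-5p is named only. The 3p arms of MIR500A, MIR501 and MIR502 are shown first because they are nearly identical and were among the members lower with p140. Lower-case letters give the mature miRNA from 5′ to 3′, and capitals mark the seed.
miR-502-3p: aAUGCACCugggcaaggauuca
miR-501-3p: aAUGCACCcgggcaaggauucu
miR-500a-3p: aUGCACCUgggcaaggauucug
With positions counted from 1 at the 5′ end of the first-named miRNA, miR-502-3p and miR-501-3p share their seed and differ at U9C and A22U. miR-500a-3p starts 1 base further along the same sequence, so its seed is shifted, and over the 21 aligned bases it differs from miR-502-3p at A22U. From miR-501-3p it differs at C9U over 21 aligned bases. Reads of such arms can be hard to assign, and how the submitters counted them is not stated in the labels.

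The other arms had seeds of their own among the 9 sequences, and are shown to set them apart from those above.
miR-532-5p: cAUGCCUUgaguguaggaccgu
miR-532-3p: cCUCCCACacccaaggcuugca
miR-188-5p: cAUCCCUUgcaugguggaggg
miR-362-5p: aAUCCUUGgaaccuaggugugagu
miR-362-3p: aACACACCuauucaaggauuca
miR-501-5p: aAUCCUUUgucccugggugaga
The seed of miR-362-5p was also found in miR-500b-5p of the same cluster, that of miR-188-5p in miR-6866-3p and that of miR-362-3p in miR-329-3p. miR-362-5p and miR-501-5p were identical at 17 of 22 aligned bases, so the likeness among the cluster's arms reaches beyond the 3p arms shown first.

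In the hg38 genome with GENCODE 29 gene models, CLCN5 (ENSG00000171365.16) spans chrX:49922615-50099235 on the plus strand. Its 8 miRNA hairpins covered 11.5 kb in the order MIR532, MIR188, MIR500A, MIR362, MIR501, MIR500B, MIR660 and MIR502, from chrX:50003148-50003238 to chrX:50014598-50014683. All 8 lay on the plus strand in a single intron of 117001 bases, chrX:49925315-50042315, which is intron 3 of 14 in the transcripts CLCN5-202 and CLCN5-203. None touched an exon of the 3 CLCN5 transcripts that span them.

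Several libraries stood apart in ways that touch these results. The epithelial miRNA miR-200c-3p had 79.5 to 101 CPM (the reads of a miRNA scaled to a common library total of miRNA reads) in HCT116 KO cells with p140 and 152 to 197 CPM with full-length DROSHA, against 25988 CPM in untreated WT HCT116 cells and 2664 CPM in the KO cells with GFP. The rescued HCT116 cells therefore lacked the level of a marker that their WT and KO counterparts carried. Wild-type and rescued HCT116 libraries are set side by side below, and no difference between them is assigned to DROSHA. miRNAs that are made without DROSHA, 22 on a list, took 7.05% to 21.0% of reads for p140 and 2.74% to 4.98% for full-length DROSHA in HCT116 KO cells, and 15.5% to 20.0% for p140 and 10.6% to 12.3% for full-length DROSHA in HEK293E KO cells. Replicate 3 was the lowest of the 3 in all 6 replicated groups, at 7.05% with p140 and 2.74% with full-length DROSHA in HCT116, 15.5% with p140 and 10.6% with full-length DROSHA in HEK293E, and 0.914% in 0.1% FBS and 0.821% in 9.1% FBS. A CPM level is a share of all miRNA reads, so it moves with what the other miRNAs do.

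Library totals were 38288 reads (KO with GFP) to 2822317 reads. The 10 members together had 252 to 412 reads per library in HCT116 KO cells with p140 and 1109 to 1259 with full-length DROSHA, 295 to 533 in HEK293E KO cells with p140 and 555 to 823 in those with the full-length form, and 1961 to 3431 in the serum experiment. Counts of single members in HCT116 p140 libraries were often under 20 reads, which limits how small a difference could be seen there.

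Summed over the members, the cluster was highest in HEK293E cells and lowest in the KO with GFP. It had 999 ± 231 CPM in HCT116 KO cells with p140 and 1480 ± 106 CPM with full-length DROSHA, 2138 ± 65.1 CPM in HEK293E KO cells with p140 and 2518 ± 95.7 CPM with full-length DROSHA (SD, n = 3 each). It had 1105 ± 18.3 CPM in WT HCT116 cells in 0.1% FBS and 1831 ± 125 CPM in 9.1% FBS (SD, n = 3 each). The single libraries had 78.4 CPM for the KO with GFP and 1204 CPM for untreated WT. In order, HEK293E with full-length DROSHA was followed by HEK293E with p140, WT HCT116 in 9.1% FBS, HCT116 with full-length DROSHA, untreated WT HCT116, WT HCT116 in 0.1% FBS, HCT116 with p140 and the KO with GFP. The library ranges of 0.1% FBS (1085 to 1121 CPM) and HCT116 with p140 (821 to 1260 CPM) overlapped, while those of the other neighbouring replicated groups did not. This order rests on CPM and changed with the scaling: relative to untreated WT, HEK293E with full-length DROSHA stood at 2.09 in CPM and at 0.958 with TMM scaling over the 20 libraries.

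**Figure D1:**
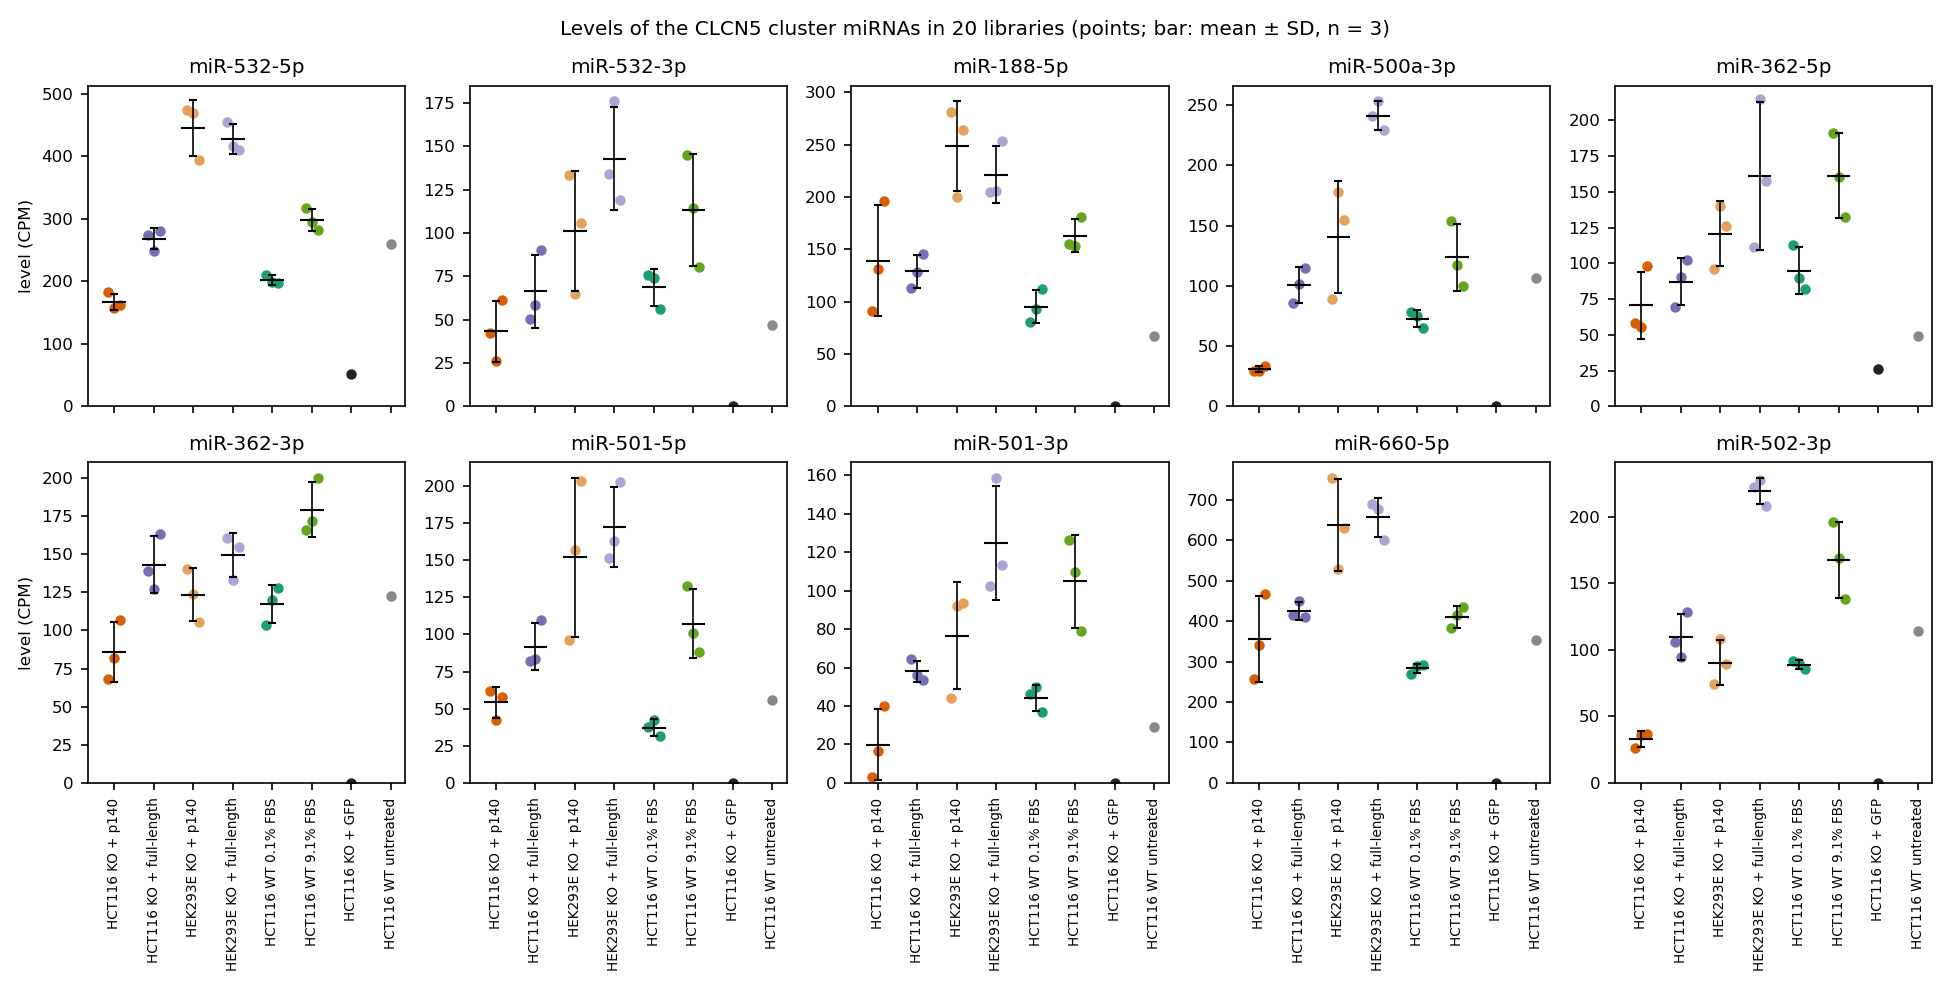
Level of each member (vertical axis, CPM) in 20 libraries of 8 groups (horizontal axis), with points for libraries and bars for mean ± SD of 3 libraries. miR-660-5p and miR-532-5p have the highest levels of the 10 in every group except the KO with GFP, and miR-502-3p in HCT116 KO cells with p140 (26.0 to 36.7 CPM) lies below all 3 full-length libraries (95 to 128 CPM).

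Within the cluster, miR-660-5p was the most abundant member and miR-532-5p the second in 7 of the 8 groups; the exception was the KO with GFP, where only 3 reads of members were seen. miR-501-3p was the least abundant or second least abundant in those 7 groups. The mean level of the highest member was 17.9 times that of the lowest in HCT116 KO cells with p140 and 7.33 times in those with the full-length form, 8.33 times in HEK293E KO cells with p140 and 5.26 times in those with the full-length form, and 7.60 times in 0.1% FBS and 3.92 times in 9.1% FBS. In the single library of untreated WT it was 12.1 times. The value of HCT116 KO cells with p140 rests on 1, 5 and 13 reads of the lowest member, miR-501-3p. It was 14.4 without replicate 1, 16.9 without replicate 2 and 30.5 without replicate 3, settings added after the data were seen.

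In HCT116 KO cells, 6 of the 10 members were lower with p140 than with full-length DROSHA and none was higher, where 31.2% of the 446 miRNAs tested were called lower and 28.5% higher (edgeR quasi-likelihood test, Benjamini-Hochberg adjusted p under 0.05). The 6 were miR-502-3p, miR-500a-3p, miR-501-3p, miR-501-5p, miR-362-3p and miR-532-5p. The median log2 fold change of the members was -0.80, beside -0.11 over all miRNAs tested. The 10 members lie in 1 intron and were compared as reads of the same 6 libraries, so they are not independent of each other. In libraries of whole cultures, fewer cells that carry a miRNA and less of it per cell cannot be told apart.

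miR-502-3p, at the downstream end of the cluster, had 26.0, 36.0 and 36.7 CPM with p140 and 106, 95 and 128 CPM with full-length DROSHA. The 3 p140 libraries were all below the full-length ones, with a log2 fold change of -1.82 ± 0.30 (SE, adjusted p = 0.0026, edgeR). miR-500a-3p had 29.3, 29.4 and 33.6 CPM with p140 against 85.8, 102 and 115 CPM with full-length DROSHA. The groups did not overlap, and the log2 fold change was -1.80 ± 0.29 (adjusted p = 0.0025, edgeR). Both calls held in each of 15 other settings tried, which left out single libraries or changed the scaling, filter or tool. miR-501-3p had 1, 5 and 13 reads with p140, or 3.26, 16.4 and 39.8 CPM, against 51, 49 and 41 reads with full-length DROSHA, or 64.3, 56.1 and 53.7 CPM. The counts did not overlap, but the p140 libraries spread widely on these few reads, and the log2 fold change of -1.63 ± 0.55 (adjusted p = 0.032, edgeR) was not called when any 1 library other than p140 replicate 3 was left out (adjusted p of 0.056 to 0.10).

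miR-532-5p, at the upstream end, had 182, 157 and 162 CPM with p140 and 274, 250 and 281 CPM with full-length DROSHA. Its libraries did not overlap, and its log2 fold change was -0.76 ± 0.21 (adjusted p = 0.015, edgeR). miR-362-3p had 68.4, 81.8 and 107 CPM with p140 against 139, 127 and 164 CPM with full-length DROSHA, again with no overlap, at -0.83 ± 0.26 (adjusted p = 0.024, edgeR). The call of miR-362-3p was lost without full-length replicate 1 or p140 replicate 1 or 2 (adjusted p of 0.0504 to 0.0855), and that of miR-532-5p without p140 replicate 2 (adjusted p = 0.0587). miR-501-5p had 61.9, 42.5 and 58.1 CPM with p140 and 82.0, 83.6 and 110 CPM with full-length DROSHA, at -0.85 ± 0.29 (adjusted p = 0.034, edgeR). The call of miR-501-5p was lost with DESeq2, with RLE size factors, with library totals alone and without any 1 library other than p140 replicate 3 (adjusted p of 0.0519 to 0.13). Replicates of these 6 miRNAs did not overlap between the forms, as for 33% of all miRNAs tested in the lower direction.

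The remaining members did not pass the test in HCT116 cells. miR-188-5p had 91.2, 131 and 196 CPM with p140 and 113, 128 and 145 CPM with full-length DROSHA, overlapping fully, with a log2 fold change of 0.01 ± 0.29 and a 95% interval of -0.67 to 0.69. miR-660-5p had 257, 340 and 468 CPM with p140 and 415, 451 and 410 CPM with full-length DROSHA, at -0.36 ± 0.22 and an interval of -0.87 to 0.16. Replicate 3 of the p140 group was the highest for both, and without it miR-660-5p was at -0.65 (adjusted p = 0.019, edgeR). miR-532-3p (26.2 to 61.2 CPM with p140, 50.4 to 90.3 CPM with full-length DROSHA) stood at -0.72 ± 0.39 and miR-362-5p (55.6 to 97.9 CPM with p140, 69.4 to 102 CPM with full-length DROSHA) at -0.40 ± 0.31. miR-532-3p was called with the replicate number as a block (adjusted p = 0.04996, edgeR), which brought the count to 7, where 169 of the 446 miRNAs tested were called lower. The count of called members was 2 without p140 replicate 2, 3 without p140 replicate 1, 3 without full-length replicate 1, 4 without full-length replicate 2 or 3, and 8 without p140 replicate 3. Of all miRNAs tested, 116 of 518 were called lower without p140 replicate 2 and 197 of 561 without p140 replicate 3. The number was 129 of 525 without p140 replicate 1 and 110 of 410 without full-length replicate 1. It was 108 of 412 without full-length replicate 2 and 119 of 410 without full-length replicate 3. Scaling to the DROSHA-independent list lowered the log2 fold changes of all miRNAs in HCT116 cells by a median of 1.62. It left the same 6 members called, where 170 of the 446 miRNAs tested were called lower and 0 higher. miR-502-3p was at -3.49, miR-500a-3p at -3.48 and miR-532-5p at -2.42, while miR-660-5p was at -1.79 and not called (adjusted p = 0.093, edgeR).

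**Figure D2:**
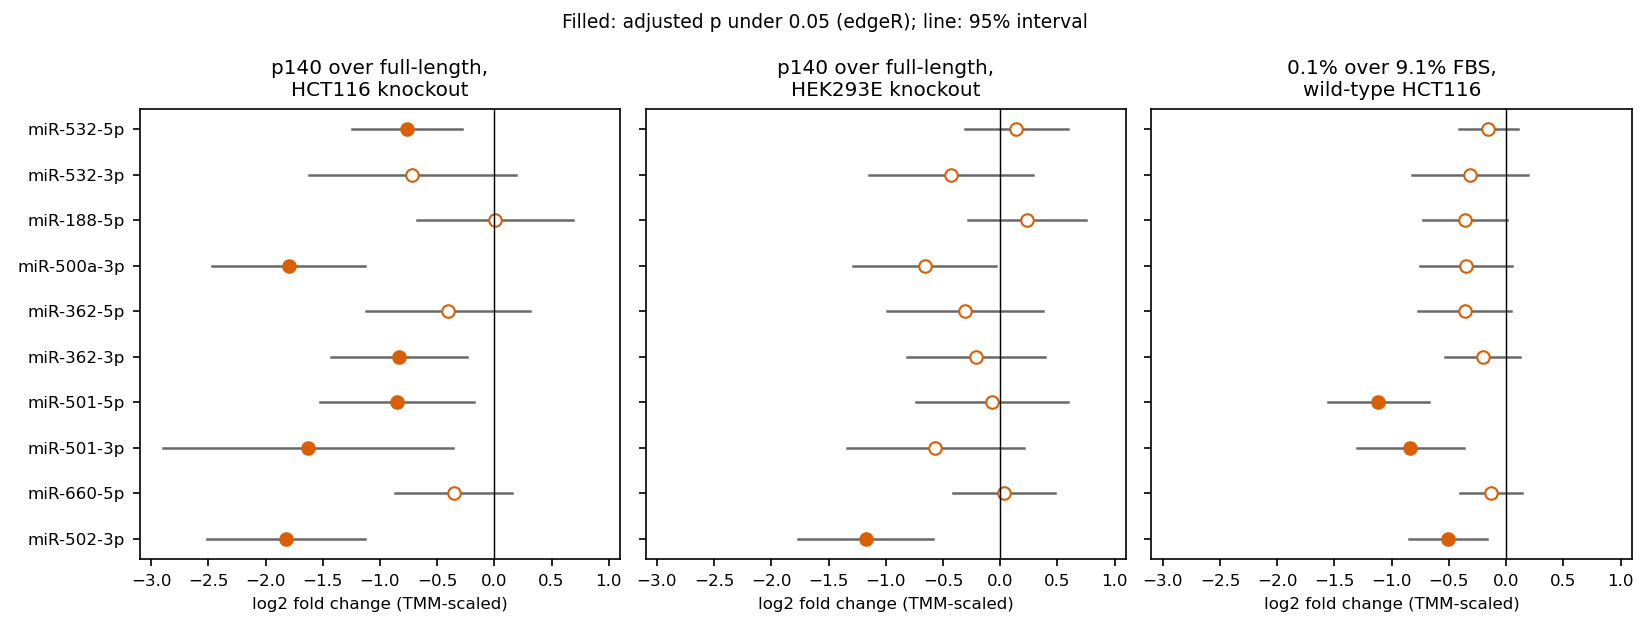
Log2 fold change (horizontal axis, TMM-scaled) of each member in the 3 replicated comparisons, with its 95% interval as a line and filled points for an adjusted p under 0.05. miR-502-3p is the single member filled in all 3 panels, at -1.82, -1.18 and -0.51.

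In HEK293E KO cells, miR-502-3p alone was called lower with p140 than with full-length DROSHA, and no member was called higher, where 21.2% of the 416 miRNAs tested were called lower and 5.29% higher. It had 74.0, 108 and 89.4 CPM with p140 and 223, 228 and 208 CPM with full-length DROSHA. The groups did not overlap, and the log2 fold change was -1.18 ± 0.27 (adjusted p = 0.0078, edgeR). The call was lost when replicates numbered 3 were left out of both groups (log2 fold change -1.19, adjusted p = 0.10), and it held when any single library was left out.

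miR-500a-3p had 88.8, 178 and 154 CPM with p140 and 241, 253 and 229 CPM with full-length DROSHA. The p140 libraries were all below the full-length ones, but its log2 fold change of -0.66 ± 0.28 did not pass the test (adjusted p = 0.12, edgeR). It did with the replicate number as a block (adjusted p = 0.011, edgeR), where 2 members were called and 113 of the 416 miRNAs tested were called lower. miR-501-3p had 44.4, 91.8 and 93.5 CPM with p140 against 103, 159 and 113 CPM with full-length DROSHA, also without overlap, at -0.57 ± 0.35 (adjusted p = 0.28, edgeR). These 3 of the 10 members did not overlap, where 29.8% of all miRNAs tested did not overlap in that direction.

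The other 7 members in HEK293E cells stood between -0.43 and 0.23 on the log2 scale, with adjusted p-values of 0.38 to 0.92 (edgeR). miR-532-5p had 474, 470 and 394 CPM with p140 and 455, 416 and 411 CPM with full-length DROSHA. miR-660-5p had 755, 529 and 630 CPM with p140 and 691, 678 and 602 CPM with full-length DROSHA. Both overlapped between the forms, with 95% intervals of -0.31 to 0.59 for miR-532-5p and -0.41 to 0.48 for miR-660-5p. The median of the members was -0.26, beside -0.04 over all miRNAs tested. Scaling libraries to the DROSHA-independent list lowered the log2 fold changes of all miRNAs by a median of 0.72. On that scale 6 members were called lower in HEK293E cells, where 212 of the 416 miRNAs tested were called lower and 4 higher. miR-532-5p, miR-188-5p and miR-660-5p turned negative. The blood-cell miRNA list summed to 111 to 281 CPM with p140 and 455 to 953 CPM with full-length DROSHA in HEK293E cells, led by miR-486-5p, and its part in these results was not tested.

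**Figure D3:**
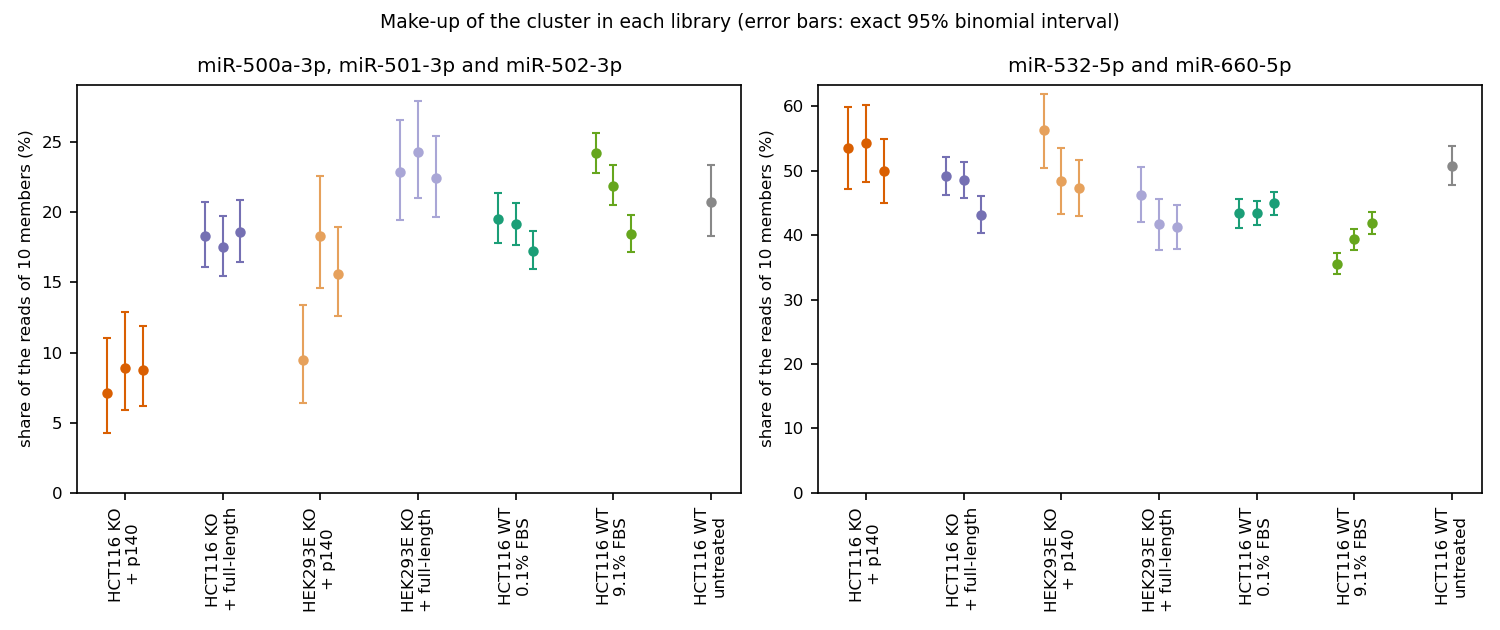
Share of the reads of the 10 members (vertical axis, %) held by 3 similar 3p arms (left) and by the 2 most abundant members (right) in each library of 7 groups, with exact 95% binomial intervals. The 3p arms hold 7.14% to 8.93% of these reads in HCT116 KO cells with p140 and 17.6% to 18.6% with full-length DROSHA.

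A share of the cluster's own reads does not depend on how libraries are scaled. miR-500a-3p, miR-501-3p and miR-502-3p together held 8.27% ± 0.98 of the members' reads in HCT116 KO cells with p140 and 18.1% ± 0.53 in those with the full-length form, and 14.5% ± 4.5 in HEK293E KO cells with p140 and 23.2% ± 0.98 with full-length DROSHA (SD, n = 3 each). In both lines every p140 library lay below every full-length library. The share was 18.7% ± 1.2 in 0.1% FBS and 21.5% ± 2.9 in 9.1% FBS (SD, n = 3 each), where the libraries overlapped, and 20.8% in untreated WT. These arms were grouped after their values were seen, so the shares are a description with no test. The plot of shares by library also shows miR-532-5p and miR-660-5p, which together held 52.6% ± 2.3 for p140 and 47.0% ± 3.3 for the full-length form in HCT116, and 50.7% ± 4.9 for p140 and 43.1% ± 2.8 for the full-length form in HEK293E (SD, n = 3 each).

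Whether p140 acted differently in HEK293E than in HCT116 cells was tested with an interaction term fitted to the 12 rescued libraries, where 3.3% of 515 miRNAs were called, with a difference above 0 for 2.14% and below 0 for 1.17%. None of the 10 members was called by edgeR. An unadjusted p under 0.05 (edgeR) was seen for 2 members and for 105 of all 515 miRNAs tested. DESeq2 called 1 member, where it called 10 of the 515 below 0 and 13 above. The difference, HEK293E minus HCT116, was 0.85 ± 0.28 for miR-532-5p (adjusted p = 0.12, edgeR; 0.049, DESeq2) and 1.07 ± 0.41 for miR-500a-3p (adjusted p = 0.16, edgeR). For miR-502-3p it was 0.58 ± 0.38 with a 95% interval of -0.23 to 1.38. All 10 differences were positive, so each member's log2 fold change was less negative or more positive in HEK293E cells. The median of the members was 0.57, beside -0.03 over all 515 miRNAs tested, of which 268 had a negative difference. The members share their libraries, so their signs are not independent of each other. Without HCT116 p140 replicate 3, miR-501-3p was called (2.01, adjusted p = 0.046, edgeR). In that setting 28 of all 570 miRNAs tested were called above 0 and 57 below.

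**Figure D4:**
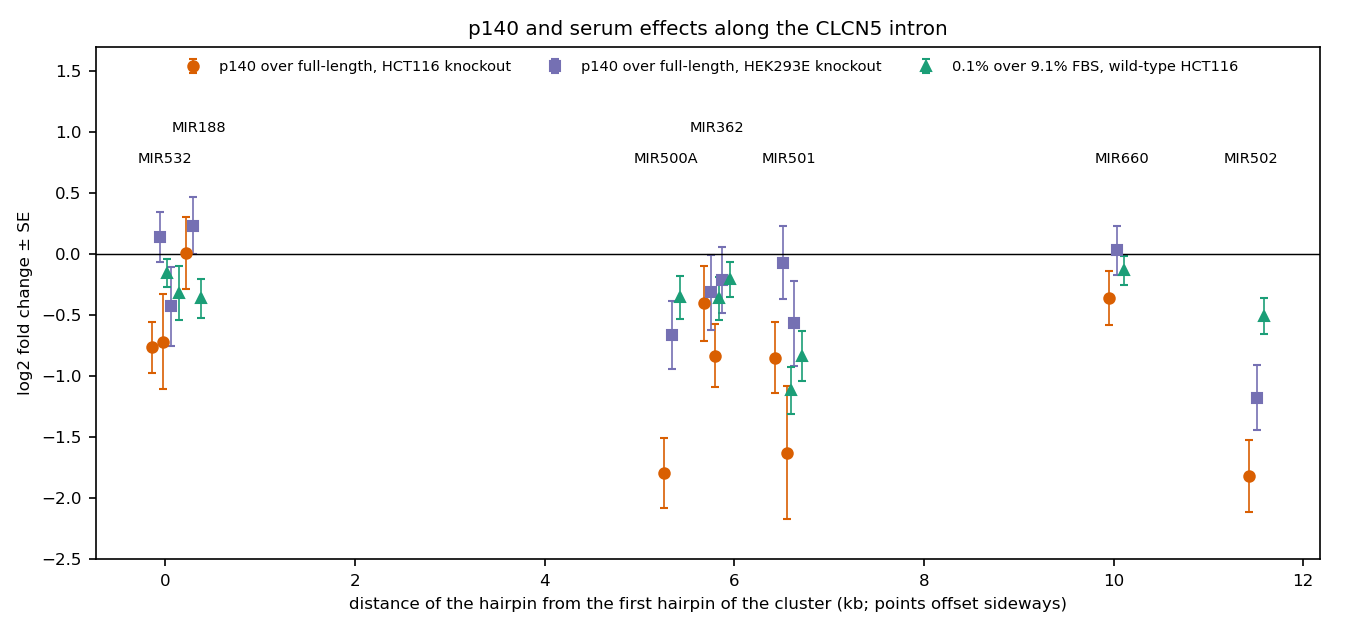
Log2 fold change ± SE of each member (vertical axis) against the distance of its hairpin from the first hairpin of the cluster (horizontal axis, kb), in 3 comparisons, with points offset sideways. The values do not run in order along the intron: in HCT116 KO cells MIR188 and MIR660 lie at 0.01 and -0.36, while MIR500A and MIR502 lie at -1.80 and -1.82.

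Position within the intron did not order the p140 values. MIR188, 264 bases downstream of MIR532, carried the member nearest to 0 in HCT116 KO cells (0.01 for miR-188-5p), while miR-532-5p stood at -0.76. MIR660, 1260 bases upstream of MIR502, carried miR-660-5p at -0.36, beside -1.82 for miR-502-3p. Neighbouring hairpins of 1 intron thus had unlike log2 fold changes, and differences between members were not tested.

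In WT HCT116 cells, 3 of the 10 members were lower in 0.1% FBS than in 9.1% FBS and none was higher, where 20.3% of the 577 miRNAs tested were called lower and 25.5% higher (edgeR). The 3 were miR-501-5p, miR-501-3p and miR-502-3p, and the log2 fold changes of all 10 were negative, with a median of -0.36 beside -0.03 over all miRNAs tested. In CPM, every member was lower in all 3 libraries of 0.1% FBS than in any of 9.1% FBS, as were 46.8% of all miRNAs tested.

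miR-501-5p had 37.9, 42.5 and 31.5 CPM in 0.1% FBS and 133, 101 and 88.2 CPM in 9.1% FBS. The groups lay far apart, with a log2 fold change of -1.12 ± 0.19 (adjusted p = 0.0021, edgeR). miR-501-3p, from the other arm of the same hairpin, had 46.4, 49.9 and 36.8 CPM in 0.1% FBS and 127, 110 and 78.9 CPM in 9.1% FBS, at -0.84 ± 0.21 (adjusted p = 0.011, edgeR). Both arms of MIR501 were called in each of the 15 other settings tried. miR-502-3p had 91.7, 89.9 and 85.4 CPM in 0.1% FBS and 196, 169 and 139 CPM in 9.1% FBS, at -0.51 ± 0.15 (adjusted p = 0.024, edgeR), and its call was lost without 9.1% FBS replicate 1 or 2 or 0.1% FBS replicate 2, and with no filter on low counts (adjusted p of 0.053 to 0.076).

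The other 7 members had log2 fold changes of -0.36 to -0.13 and were not called. miR-660-5p had 270, 289 and 291 CPM in 0.1% FBS against 382, 416 and 436 CPM in 9.1% FBS, and miR-532-5p 211, 198 and 197 CPM in 0.1% FBS against 317, 295 and 283 CPM in 9.1% FBS. The groups of both were separate in CPM, while their TMM-scaled log2 fold changes were -0.13 ± 0.12 for miR-660-5p and -0.15 ± 0.11 for miR-532-5p. With library totals alone, an alternative chosen after the data were seen, the log2 fold changes of all miRNAs fell by a median of 0.41. All 10 members were then called lower, where 248 of the 577 miRNAs tested were called lower and 73 higher. All 10 were also called lower when the DROSHA-independent miRNAs set the library size, with a fall of 0.64, where 241 of 577 were called lower and 22 higher. With the replicate number as a block 7 members were called, 7 without the replicates numbered 3, and 6 without 9.1% FBS replicate 3 alone. Of all miRNAs tested, 175 of 577, 162 of 586 and 138 of 593 were called lower in these settings. The blood-cell miRNA list summed to 187 to 210 CPM in 0.1% FBS and 55.6 to 76.8 CPM in 9.1% FBS, and its part in these results was not tested.

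Between the lines, both with full-length DROSHA, the direction of the members depended on the scaling. The epithelial and intestinal miRNA list summed to 448 to 487 CPM in these HCT116 libraries and 499 to 605 CPM in HEK293E. In untreated WT HCT116 cells it summed to 37342 CPM, so the rescued HCT116 cells do not stand for WT HCT116 here. The part of that list in these results was not tested. In CPM, 9 of the 10 members were higher in all 3 HEK293E libraries than in any HCT116 library, as were 63.1% of all 515 miRNAs tested. miR-502-3p, for example, had 223, 228 and 208 CPM in HEK293E and 106, 95 and 128 CPM in HCT116. With TMM scaling 1 member, miR-362-3p, was called, and it was lower in HEK293E (-0.95 ± 0.24, adjusted p = 0.0028, edgeR), where 27.4% of miRNAs were called lower and 34.6% higher. Its CPM overlapped, with 161, 133 and 155 CPM in HEK293E and 139, 127 and 164 CPM in HCT116. With library totals alone all miRNAs shifted by a median of 1.02, and 311 of the 515 tested were called higher and 69 lower. In that setting 9 members were called higher in HEK293E, and miR-362-3p stood at 0.07 and was not called. miR-362-3p was the lowest of the members in this comparison on either scale.

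In the KO cells with GFP, the 10 members had 3 reads of 38288, against 1031 of 856658 reads in untreated WT cells. The sum was 78.4 CPM (exact 95% Poisson interval 16.2 to 229) in the KO with GFP and 1204 CPM (1131 to 1279) in WT, or 15.4-fold lower in the KO (5.24 to 74.6). These intervals cover counting error only, and with 1 library each there is no test of the conditions. The 3 reads were 2 of miR-532-5p and 1 of miR-362-5p, against 222 and 42 reads of these in WT. miR-532-5p was 4.96-fold lower in the KO (1.36 to 41.2) and miR-362-5p 1.88-fold lower (0.319 to 75.9), an interval that includes no difference.

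The other 8 members had 0 reads in the KO with GFP, which allows up to 78.4 CPM each (3 reads). Against this floor, and taking the WT level as measured, miR-660-5p (0 reads in the KO with GFP, 302 reads or 353 CPM in WT) was at least 4.50-fold lower, miR-362-3p at least 1.56-fold, miR-502-3p at least 1.46-fold and miR-500a-3p at least 1.36-fold, while miR-532-3p, miR-188-5p, miR-501-5p and miR-501-3p were below the floor in WT too, so no difference was detectable at this depth. The exact 95% Poisson interval of 0 reads reaches higher, to 96.3 CPM, and for miR-500a-3p and miR-502-3p the lower ends of the WT intervals, 85.5 and 92.9 CPM, lie below it. DROSHA-independent miRNAs took 69.7% of the reads in the KO with GFP and 1.27% in WT. Scaled to the summed reads of that list, the cluster was 846-fold lower in the KO (289 to 4110). On the same scale all other mature miRNAs together were 55.0-fold lower (54.5 to 55.6), so much of this value is a shift of the whole library.

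The ratio of the 2 arms of a hairpin is free of library scaling, and it was measured for MIR532, MIR362 and MIR501. In 9 ratios compared by exact two-sided permutation tests of 3 against 3 libraries, where the smallest p possible is 0.1, no adjusted p was under 0.45. The log2 ratio of miR-532-5p over miR-532-3p was 2.16 ± 0.56 in HEK293E KO cells with p140 and 1.59 ± 0.31 with full-length DROSHA (SD, n = 3 each), without overlap (exact p = 0.1). In HCT116 KO cells the groups overlapped, at 1.99 ± 0.57 for p140 and 2.05 ± 0.40 for the full-length form (SD, n = 3 each).

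The log2 ratio of miR-501-3p over miR-501-5p was 0.25 ± 0.04 in 0.1% FBS and -0.04 ± 0.14 in 9.1% FBS (SD, n = 3 each), without overlap (exact p = 0.1). In HCT116 KO cells it was -1.84 ± 1.65 with p140, where replicate 1 held a single read of miR-501-3p, and -0.65 ± 0.35 with full-length DROSHA (SD, n = 3 each). The log2 ratio of miR-362-5p over miR-362-3p was -0.30 ± 0.22 in HCT116 KO cells with p140 and -0.72 ± 0.26 with full-length DROSHA (SD, n = 3 each), and -1.31 in the single library of untreated WT, on 42 and 105 reads. Their libraries overlapped in all 3 comparisons. In HEK293E KO cells the ratio of miR-501-3p over miR-501-5p stood at -0.97 ± 0.19 for p140 and -0.47 ± 0.40 for the full-length form (SD, n = 3 each), with overlap (exact p = 0.2). Within same-numbered libraries the 3 differences had 1 sign in 4 of the 9 comparisons, where an exact two-sided sign-flip test gave its smallest possible p, 0.25: positive for miR-532 and negative for miR-501 in HEK293E, negative for miR-362 and positive for miR-501 in the serum experiment. It gave 0.5 to 1.0 for the other 5.

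**Figure D5:**
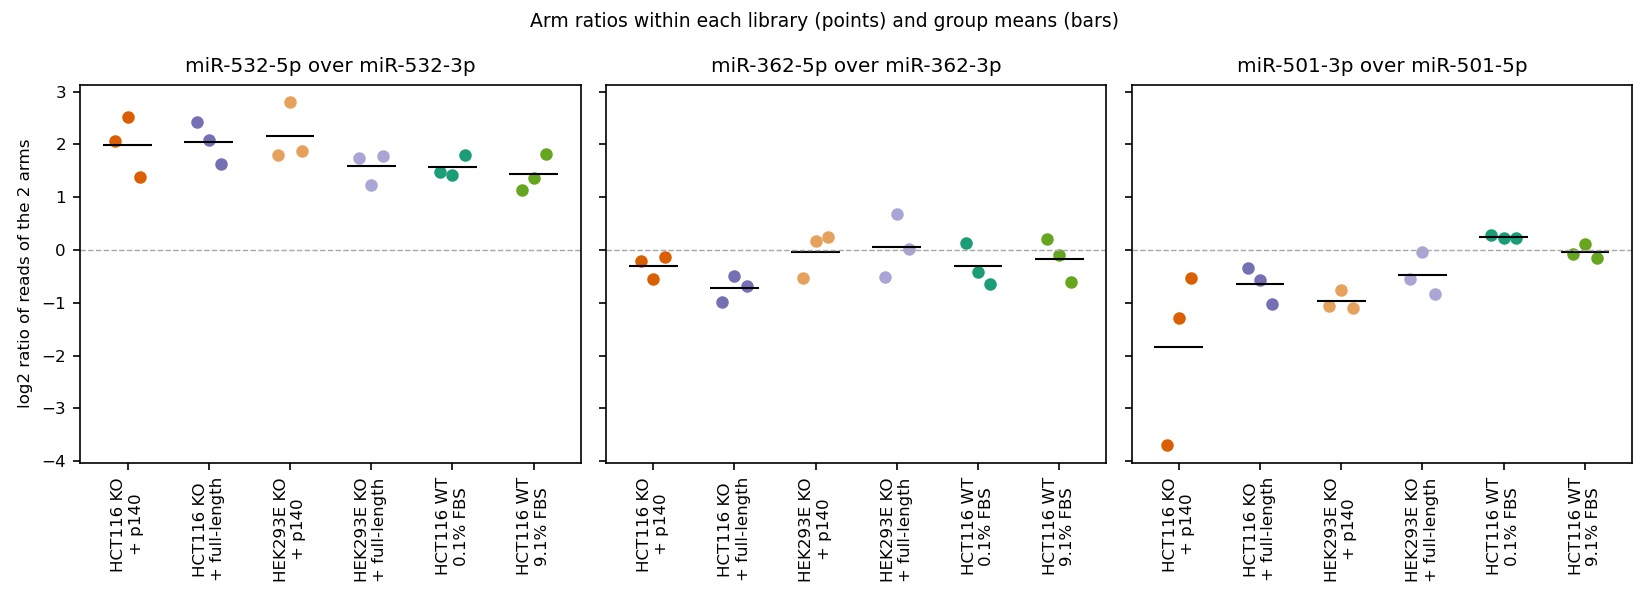
Log2 ratio of the reads of the 2 arms of MIR532, MIR362 and MIR501 (vertical axis) in each library of 6 replicated groups (horizontal axis), with bars for group means. miR-532-5p exceeds miR-532-3p in all 18 libraries, and the groups separate in 2 of the 9 comparisons.

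Of the 6 further arms of these hairpins, most were rare. miR-188-3p and miR-500b-3p had at most 14 and 6 reads in any library. miR-500a-5p and miR-500b-5p had equal counts in 19 of 20 libraries and differed by 1 read in the other, and the 18 bases of miR-500b-5p lie within the 23 of miR-500a-5p, so the same reads appear to have been counted for both and their values stand for 1 measurement. It had 32.6, 16.4 and 45.9 CPM in HCT116 KO cells with p140 and 70.6, 75.5 and 82.5 CPM with full-length DROSHA, at -1.36 ± 0.36 (adjusted p = 0.013, edgeR). The groups did not overlap, and in WT cells it was also lower in 0.1% FBS (61.1, 47.0 and 49.6 CPM) than in 9.1% FBS (125, 113 and 108 CPM), at -0.73 ± 0.15 (adjusted p = 0.0047, edgeR). In HEK293E KO cells it stood at -0.38 ± 0.26 (adjusted p = 0.32, edgeR). miR-660-3p was not called in HCT116 KO cells (-0.63 ± 0.43) or in 0.1% FBS (-0.20 ± 0.22), and miR-502-5p not in 0.1% FBS (-0.62 ± 0.23, adjusted p = 0.053, edgeR).

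Other intronic clusters set these values in context. In HCT116 KO cells all 6 tested miRNAs of the FTX cluster, also in an X-linked host gene, were lower with p140, with a median log2 fold change of -3.65 beside -0.80 for the CLCN5 members. Of 6 tested miRNAs of the MCM7 cluster 1 was lower, with a median of -0.19. In HEK293E KO cells the medians were -1.82 for the FTX cluster (6 of 6 lower) and 0.05 for the MCM7 cluster (0 of 6 called). The FTX, MCM7 and CLCN5 lists were chosen with results of these data known, and differences between them were not tested.

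The miRNAs from elsewhere in the genome whose levels followed the members most closely over the 8 groups were miR-378c, miR-339-3p, miR-339-5p, miR-18a-3p and miR-25-5p. Likeness was the root mean square difference of centred log2(mean CPM + 1) from the mean of the 6 members with at least 100 CPM, and it was 0.44, 0.57, 0.63, 0.63 and 0.65 for these 5, against a median of 1.55 over 259 candidates. The members themselves, which are part of that mean, ranged from 0.35 (miR-362-3p) to 1.35 (miR-532-5p). In the KO with GFP miR-532-5p, with 2 reads, had a centred value of -2.10. The other members used had 0 reads there and values of -7.65 to -5.83, so its distance leans on that 1 shallow library. The choice of these 5 was not stable: 1 of the 5 stayed among the closest without the KO with GFP, and likewise 1 of the 5 with TMM-scaled CPM.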

How the data were processed

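Per the labels' protocols, TRIzol total RNA was DNase-treated, mixed with spike-in RNAs, size-selected, given random-base adaptors and read on an Illumina MiSeq. The tools cutadapt, STAR and bedtools and the hg38 build are named, per the submitters' processing notes; versions and the handling of reads that fit several places are not given in the sources used. The tables deposited by the authors hold raw counts of reads for each mature miRNA of each hairpin. There were 2813 values per library and 0 that named a spike-in or other RNA.

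For the 167 mature miRNAs listed under several hairpins, the copy with the highest total was kept. CPM are counts over the library's total of these. Counts were tested over all miRNAs with the quasi-likelihood test of edgeR 4.0.16 under R 4.3.3, after TMM scaling and filterByExpr (minimum count 10), and p-values were adjusted by Benjamini-Hochberg and called under 0.05, each replicated comparison alone and the lines in 1 fit over 12 libraries; the procedure was tested on simulated data. DESeq2 1.42.0, other scalings, filters and left-out libraries were alternatives. Arm ratios used a pseudocount of 0.5. Intervals and floors (3 counts) cover counting error only, since reads are not independent molecules. Members, lists and similar profiles (the 5 nearest of those with at least 100 CPM) follow rules chosen with earlier results of these data known. Deviations from the group means of same-numbered libraries correlated at 0.33 to 0.64 in HCT116, 0.32 to 0.51 in HEK293E and 0.11 to 0.64 in the serum experiment, where replicate 2 correlated at 0.11 with its own number and at 0.46 with another. The numbers, given in the sample titles, were used as pairs in the block and sign-flip alternatives because every same-numbered correlation passed 0.1. That bar is low and does not show that the libraries were paired, which the labels do not state. Tests without the block are the main ones.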

Additional observations from a re-analysis of the deposited data

How the results depend on the processing

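Directions of called members held in every alternative tried for the p140 and serum comparisons; the cause of each change below was not tested. Left-out libraries gave 2 to 8 called members for p140 in HCT116, 0 to 1 in HEK293E, 2 to 7 for serum, 1 to 1 between lines and 0 to 1 for the interaction. Over all miRNAs tested, the number called lower ran from 108 (of 412) to 197 (of 561) in HCT116. It ran from 40 (of 409) to 93 (of 430) in HEK293E and from 80 to 162 (of 586 each) for serum. Between lines it ran from 125 (of 572) to 151 (of 558). The interaction ran from 2 below 0 and 3 above (of 566) to 57 below and 28 above (of 570). In HEK293E the count of 1 became 6 (DROSHA-independent scaling), 3 (similar 3p arms pooled: 1 summed row with 1 call, -0.83 with an adjusted p of 0.029 by edgeR, counted for 3 members) and 2 (replicate block). Of all 416 miRNAs tested there, 212 were called lower with DROSHA-independent scaling and 113 with the block. With the arms pooled, 90 of 414 were called lower. For serum 3 became 10 (library totals alone or DROSHA-independent scaling) and 7 (replicate block). Of all 577 tested there, 248, 241 and 175 were called lower in these settings, in that order. The replicate block changed no other call except that of miR-532-3p for p140 in HCT116. DESeq2 called 1 member in the interaction, where it called 10 of all 515 miRNAs tested below 0 and 13 above.

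Relative to untreated WT, TMM scaling over 20 libraries and DROSHA-independent scaling put the summed cluster at 0.626 and 0.0933 for HCT116 with p140 (0.722 to 0.904 with libraries left out, in CPM), 1.12 and 0.414 for HCT116 with full-length DROSHA (1.18 to 1.26), 0.780 and 0.129 for HEK293E with p140, 0.958 and 0.236 for HEK293E with full-length DROSHA, 1.25 and 1.02 for 0.1% FBS, and 1.78 and 1.97 for 9.1% FBS. The KO with GFP was at 0.0012 with DROSHA-independent scaling, 846-fold lower, where all other mature miRNAs together were 55.0-fold lower.

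Values near 0 changed sign. For p140 in HCT116, miR-188-5p was -0.27 with no filter, -1.44 with DROSHA-independent scaling, -0.0149 with the replicate block, -0.0266 in 1 fit over 18 libraries and -0.36 to 0.21 with libraries left out. In HEK293E miR-501-5p was 0.0197 with DESeq2, 0.0263 with RLE factors and -0.33 to 0.23 with libraries left out; miR-660-5p was -0.0457 with library totals, -0.67 with DROSHA-independent scaling and -0.0326 to 0.12 with libraries left out; that scaling put miR-532-5p at -0.59 and miR-188-5p at -0.47. Between lines, library totals alone called 9 members and 311 of all 515 miRNAs tested higher. It put miR-532-5p at 0.68, miR-188-5p 0.79, miR-362-5p 0.89, miR-362-3p 0.0704, miR-501-5p 0.92, miR-660-5p 0.63 and miR-502-3p 1.00. DROSHA-independent scaling put miR-532-3p at -0.53, miR-500a-3p at -0.33 and miR-501-3p at -0.41; miR-502-3p was 0.0649 (DESeq2), 0.0654 (RLE) and 0.11 (arms pooled). With libraries left out the line values spanned -0.10 to 0.15 for miR-502-3p, -0.12 to 0.44 for miR-532-3p, -0.15 to 0.21 for miR-501-3p, -0.31 to 0.0911 for miR-501-5p and -0.41 to 0.0176 for miR-362-5p. The interaction of miR-362-5p was -0.11 with library totals and -0.13 to 0.46 with libraries left out, and of miR-532-3p -0.0491 to 0.57. With libraries left out, the arm ratio difference spanned -0.32 to 0.24 (miR-532, HCT116), -0.0212 to 0.32 (miR-532, serum), -0.39 to 0.21 (miR-362, HEK293E) and -0.37 to 0.0348 (miR-362, serum). Depth limits the members of few reads in HCT116 KO cells with p140 and the 3 reads in the KO with GFP.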
